A study of Taeniopygia guttata with 48 samples.

Results

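The sex difference in the hypothalamus was measured in adult zebra finches that had received peanut oil alone as eggs. The rule took 6 of the 24 RNA libraries of the series, 3 of males and 3 of females, and every gene whose mean over these 6 libraries was at least 1 FPKM (fragments per kilobase of transcript, scaled by the mapped fragments of the library). Of the 17475 genes in the table, 13560 met this level. Of the 3915 that did not, 1430 were listed at 0 in all 6 libraries.

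All 6 libraries came from adults of the same species, and both sexes had the same egg treatment, 5 µl of peanut oil injected on the morning of laying. No testosterone was given to them, so they served as the control birds of a study whose other birds received 500 pg of testosterone in the same volume of oil. The hypothalamus was taken as a 1 mm punch from frozen brain cut in 50 µm sections. The labels give the libraries as separate samples and name no birds, so p-values cover only the spread between these libraries, which may in part be technical. The series also holds 24 methylation samples, which were not used here.

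As background, the hypothalamus controls pituitary hormone release, feeding, temperature and reproductive behaviour, and its neurons are among those of the brain that respond to sex steroids. In birds the male is the sex with a pair of Z chromosomes and the female carries a Z and a W. Dosage compensation of the Z chromosome is incomplete in birds, so many Z-linked genes are known to be expressed at higher levels in males than in females. Songbirds also differ between the sexes in brain structure, since in the zebra finch only males sing. The genes are known here by identifier alone, with no symbols or chromosomes, so Z-linked genes could not be counted apart and the labelled tissue could not be checked against marker genes.

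The 6 libraries were alike in scale. Their totals ran from 925938 to 1027651 FPKM and their medians over all genes from 11.1 to 11.9 FPKM. The number of genes above 0 was 14920 to 14938 in the male libraries and 15013 to 15152 in the female ones, which did not overlap. Absolute depth is unknown from FPKM. Relative depth, estimated from the steps between low values, was 0.869, 0.909 and 1.02 in male replicates 1 to 3 and 1.15, 1.16 and 0.94 in female replicates 1 to 3, and it is rough, since 6 of 15 library pairs lay within 3% of the fitted depths. Across the 13560 genes the Pearson r of log2(FPKM + 1) had a median of 0.901 for pairs of the same sex and 0.917 for pairs of different sex. Libraries of the same sex were thus no more alike than libraries of different sex. Among the latter, the 3 pairs with the same replicate number had a median r of 0.926.

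The question of this comparison is which genes are expressed at different levels in the male and the female hypothalamus without egg testosterone. Most genes were at like levels. Of 13560 genes, 84.3% had a log2 difference (male minus female, on the log2(FPKM + 1) scale) of less than 0.5 either way, and the median was 0.011. By limma's moderated test with Benjamini-Hochberg adjustment, 0 genes passed an adjusted p of 0.05, which is 0.0% of those tested, and the smallest adjusted p was 0.45. At an unadjusted p under 0.05 limma gave 528 genes, or 3.89%, a share smaller than the threshold itself. Of these, 395 were higher in males, which is 2.91% of the genes tested, and 133 were higher in females, which is 0.981%. The 95% interval around the log2 difference reached 0.707 either side at the median gene, a factor of 1.63. In 55.2% of genes it did not extend past a 2-fold difference in either direction, and in 89.5% it did not extend past 4-fold. The adjusted count was 1 without female replicate 1, female replicate 2 or male replicate 2. The unadjusted limma count was 1001 of 13560 without female replicate 2, a share larger than the threshold. It was 394 to 627 with each other library left out, shares smaller than the threshold. The small share of the main fit thus depended on female replicate 2. A test on 3 against 3 libraries by exact permutation cannot give a two-sided p below 0.1 for a single gene.

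The direction of the difference was described without a model of the spread, by asking for which genes every library of one sex lay above every library of the other. In 662 genes, or 4.88%, all 3 male libraries were above all 3 female libraries, and in 424 genes, or 3.13%, the reverse held. If the libraries of each gene were ordered at random, a fraction of 0.1 of genes would show no overlap in one direction or the other. The shares of both directions together were below that fraction, so these counts alone do not show a sex difference. Male-higher genes were 61.0% of the genes without overlap, and 55.5% or 55.0% after scaling by median ratios or quantiles. With a gap of at least 1.25 times in FPKM + 1 between the lowest library of the higher sex and the highest library of the other, 219 genes were higher in males, or 1.62%, and 55 were higher in females, or 0.406%. At a gap of 1.5 times there were 73 and 21 genes, and at 2 times 7 and 7. The male-higher share was 72.1% at a gap of 1.1 times, 79.9% at 1.25 times, 77.7% at 1.5 times and 50.0% at 2 times. In these tissue samples fewer cells of a type and less RNA per cell cannot be told apart.

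The gap of 1.25 times was chosen after the counts at several gaps were seen. The nearest gene outside the male-higher list had a gap of 1.248 times and the nearest inside 1.25 times, and 63 genes lay within 5% below the limit. For the female-higher list the nearest values were 1.242 and 1.251 times, with 20 genes within 5% below. With 1 library left out, the condition is met by more genes because fewer libraries have to be ordered. The male-higher and female-higher counts were then 400 and 215 without male replicate 1, 327 and 161 without male replicate 2, and 338 and 131 without male replicate 3. They were 316 and 140 without female replicate 1, 522 and 352 without female replicate 2, and 363 and 156 without female replicate 3. Male-higher genes were thus 79.9% of those with a gap in all 6 libraries, and 59.7% to 72.1% with 1 library left out. With no gap required, the 2 counts were nearly equal without female replicate 2, at 1609 and 1570.

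**Figure D1:**
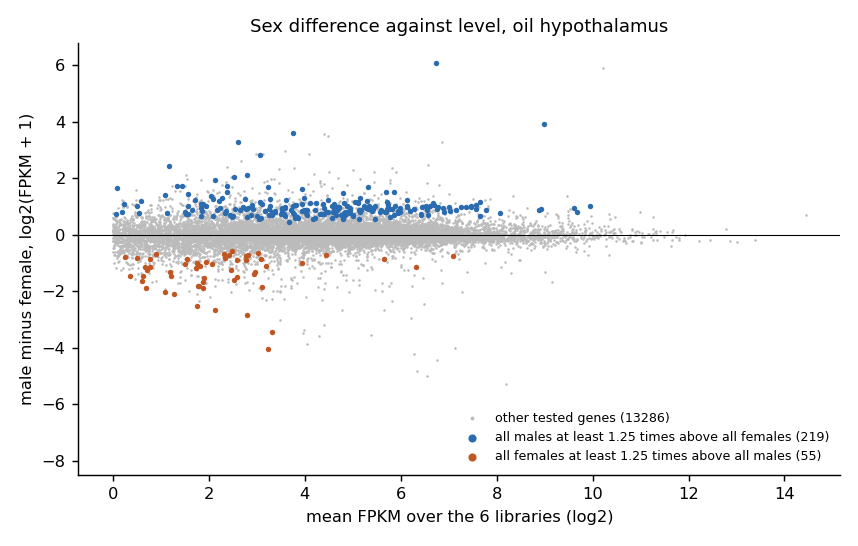
Each point is 1 of 13560 genes, with its mean FPKM over the 6 libraries on a log2 axis and its male minus female difference on the log2(FPKM + 1) scale. The 219 genes with a male gap form a band near 1 over most of the range of levels, while the 55 with a female gap lie mostly at low levels.

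The sizes of these differences were not alike in the 2 directions. Among genes whose sexes did not overlap, differences of 0.3 to 0.5 on the log2 scale were found in 141 male-higher and 120 female-higher genes. Between 0.7 and 0.9 there were 145 and 36, and between 0.9 and 1.1 there were 91 and 24. Under 0.3 the female-higher genes were the more numerous, at 120 against 80. From 1.5 to 2 the counts were 16 and 13, and from 2 upward 12 and 10. The excess of male-higher genes thus lay mainly between 0.5 and 1.5, and it was largest between 0.7 and 0.9, somewhat below a doubling.

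**Figure D2:**
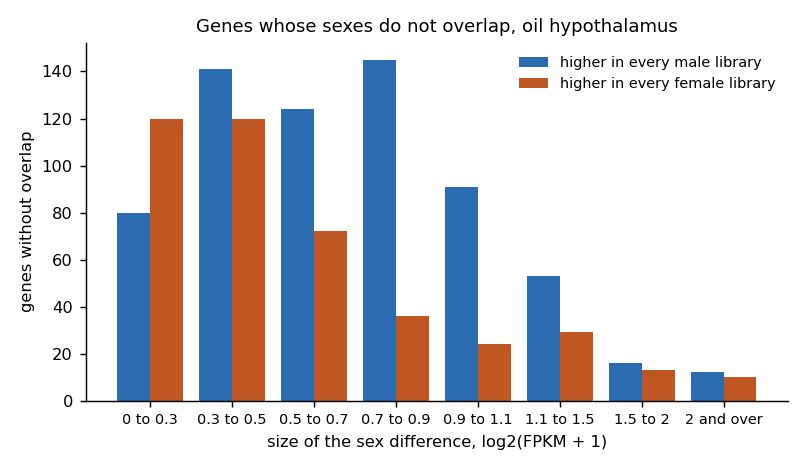
Bars count the genes whose 3 male and 3 female oil hypothalamus libraries did not overlap, by the size of the difference on the log2(FPKM + 1) scale. The bars of male-higher genes are tallest at 0.7 to 0.9, with 145 genes, where the female-higher bar has 36.

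Level separated the directions further. Among the 2534 genes of 1 to 5 FPKM, 33 had a male gap and 31 a female gap. Among the 3932 genes of 5 to 20 FPKM, the counts were 73 and 20. Among the 5275 genes of 20 to 100 FPKM, they were 87 and 3, and among the 1819 genes of at least 100 FPKM, 26 and 1. With no gap required, the directions were closer. The male-higher and female-higher counts were then 118 and 104, 231 and 145, 250 and 127, and 63 and 48 over the same classes. The median standard deviation within a sex fell over these classes from 0.522 to 0.296 on the log2 scale. At 20 FPKM and above, where the added 1 hardly alters a ratio, 113 of 7094 genes were thus in the male-higher list and 4 in the female-higher list. None of the 100 most abundant genes, which had at least 1049.3 FPKM, was in either list (0 with a male gap and 0 with a female gap), and their median log2 difference was −0.01. With no gap required, 0 of these 100 were male-higher and 3 female-higher without overlap. Their log2 differences ran from −0.73 to 5.9. Of all tested genes 1.62% had a male gap and 0.406% a female gap. Without overlap the shares of all were 4.88% and 3.13%. The 0 of 100 with a gap is thus near the share of all genes.

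Most of the 219 male-higher genes had ratios in a narrow range, with a tail of larger ones. The ratio of the male to the female mean FPKM had a median of 1.97, with the middle 50% of genes between 1.79 and 2.27. Its 95th percentile was 5.25. It was 1.5 to 2.5 in 174 genes, under 1.5 in 3 and 2.5 or more in 42, among them 4 genes listed at 0 in all female libraries. Their mean FPKM had a median of 21.0, near the 21.7 of all tested genes. In the 113 of at least 20 FPKM the median ratio was 1.91 and the middle 50% lay between 1.78 and 2.05. Set against the female mean of each of these 113 genes, the median ratio was 1.9, 1.9 and 1.87 in male replicates 1 to 3. It was 1.01, 0.981 and 1.0 in female replicates 1 to 3, which make up that mean. The 3 male libraries stood at nearly the same height. These genes were selected for the gap, so the values describe the list and are no test of it.

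ENSTGUG00000001469 had the smallest unadjusted p of all genes. Its level was 99.1, 91.6 and 106 FPKM in male replicates 1 to 3 and 37.5, 45.6 and 41.6 FPKM in female replicates 1 to 3. The sexes were far apart, with the lowest male value at about double the highest female one. The means were 98.9 ± 7.22 and 41.6 ± 4.04 FPKM (SD, n = 3 each), a log2 difference of 1.23 with a 95% interval from 0.85 to 1.61 (SE 0.16, limma unadjusted p = 0.00015, adjusted p = 0.45). It did not pass the threshold.

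ENSTGUG00000001116 was at 82.8, 75.1 and 80.0 FPKM in male replicates 1 to 3 and at 37.7, 38.1 and 41.1 FPKM in female replicates 1 to 3. Both sexes held to narrow ranges that did not overlap. The log2 difference was 1.01 with a 95% interval from 0.66 to 1.36 (SE 0.15, limma unadjusted p = 0.000306, adjusted p = 0.45), which did not pass either. What these genes encode is not known from the identifiers.

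The 55 female-higher genes had a lower median level and a larger median ratio than the male-higher ones. Their mean FPKM had a median of 3.81, and 4 of them reached 20 FPKM. The ratio of the female to the male mean had a median of 2.88. It was 1.5 to 2.5 in 21 genes and 2.5 or more in 34, among them 5 genes listed at 0 in all male libraries. Their median standard deviation within a sex was 0.391 on the log2 scale, against 0.211 in the male-higher list and 0.357 over all tested genes. Over all genes of 1 to 5 FPKM it was 0.522. These genes too were selected for the gap, and whether the lists differ at like levels was not tested.

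ENSTGUG00000000115, a female-higher gene with a mean of 80.2 FPKM over the 6 libraries, ranked 3 among all tested genes by unadjusted p in limma. It was at 112, 109 and 109 FPKM in female replicates 1 to 3 and at 55.9, 49.4 and 44.6 FPKM in male replicates 1 to 3. The female values lay within a few FPKM of each other. The log2 difference was −1.13 with a 95% interval from −1.5 to −0.76 (SE 0.15, limma unadjusted p = 0.000216, adjusted p = 0.45).

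ENSTGUG00000011882 was listed at 0 in all 3 male libraries and at 15.1, 6.86 and 34.1 FPKM in female replicates 1 to 3. The female values spread widely, and no ratio can be given against a group listed at 0 (limma unadjusted p = 0.000202, adjusted p = 0.45).

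**Figure D3:**
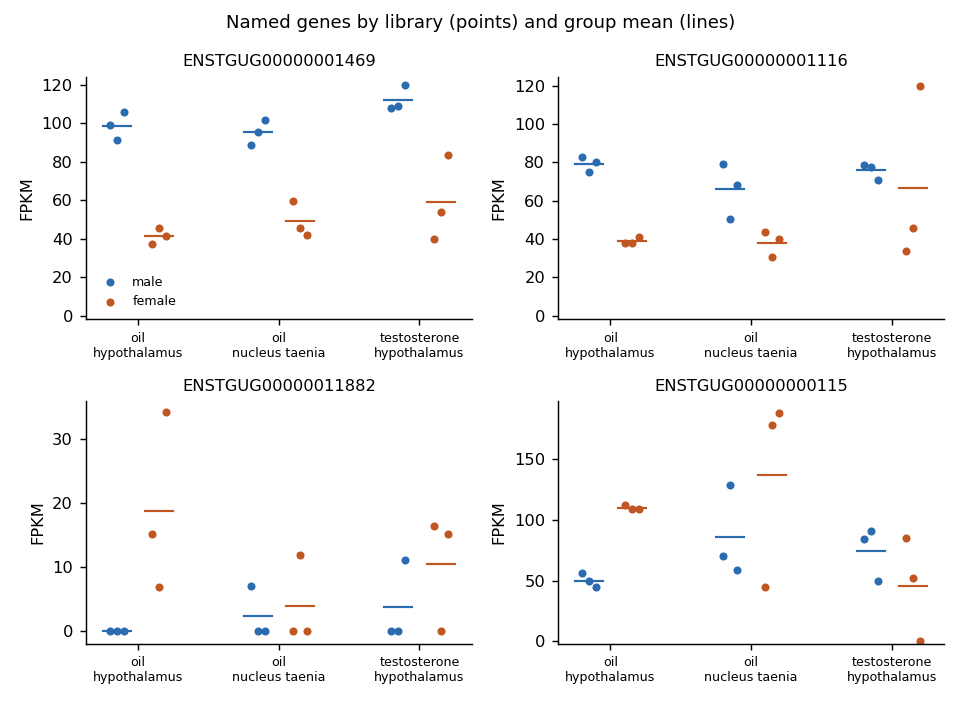
FPKM of the 4 named genes in each library (points) with the group mean (lines), for oil hypothalamus, oil nucleus taenia and testosterone hypothalamus, males in blue and females in orange. In the oil hypothalamus the sexes do not overlap in any of the 4 panels, as the choice of genes required. Elsewhere they overlap in some.

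Genes listed at 0 throughout one sex and above 0 throughout the other were few. Of the tested genes 4 were present in the 3 male libraries only, at 1.85 to 334 FPKM, and 6 in the 3 female libraries only, at 0.191 to 49.8 FPKM. Of the 6 female ones, 3 were under 1 FPKM in 1 of the female libraries. In other groups these patterns were mostly not repeated. All 6 of the female ones were above 0 in at least 1 male library of the oil nucleus taenia, and of the 4 male ones 1 had the same pattern there. Among genes below the level of 1 FPKM, 17 were present in the female libraries only and 6 in the male libraries only. The female libraries listed more genes above 0, as given earlier, and the part of this in the on and off counts was not tested.

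The nucleus taenia, an amygdala region of birds linked to social behaviour, gave the sex difference of oil birds in 6 other libraries. There limma found 1 of 13560 genes past the adjusted threshold, or 0.00737%, and an unadjusted p under 0.05 was reached by 1058, or 7.8%. The call did not hold without female replicate 1, female replicate 2 or male replicate 2, which gave 0 genes, and it was 3 genes without female replicate 3 and 2 without male replicate 1. The gene was not among the 219, and its hypothalamus values overlapped between the sexes. Genes without overlap were 959 male-higher, or 7.07%, and 974 female-higher, or 7.18%. With a gap of 1.25 times they were 286, or 2.11%, and 151, or 1.11%. At 20 FPKM and above the gap was met by 144 and 78 genes, against 113 and 4 in the hypothalamus.

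The male-higher genes of the hypothalamus were for the most part male-higher in the nucleus taenia too. Of the 219, 213 had a higher mean in males there, against 47.1% of all tested genes. The sexes did not overlap in 167 of them, or 76.3%, against 7.07% of all. Their median log2 difference was 0.83, where it was 0.91 in the hypothalamus in which they were chosen and −0.03 over all genes. In the 113 genes of at least 20 FPKM, the median ratio to the female mean was 1.72, 1.92 and 2.0 in male replicates 1 to 3 of the nucleus taenia. It was 1.04, 0.953 and 0.982 in the female ones, which make up that mean. Of the 55 female-higher genes, 45 had a higher mean in females in the nucleus taenia, against 52.8% of all tested genes. The sexes did not overlap in 18 of them, or 32.7%, against 7.18% of all. Their median was −0.71 there and −1.13 in the hypothalamus.

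The reverse reading used genes chosen in the nucleus taenia alone. Of its 286 male-higher genes with a gap, 245, or 85.7%, had a higher mean in males in the hypothalamus, against 51.6% of all tested genes. The sexes did not overlap there in 170, or 59.4%, against 4.88% of all, and the median log2 difference was 0.70. Of its 151 female-higher genes, 111, or 73.5%, had a higher mean in females in the hypothalamus, against 48.4% of all. In 28, or 18.5%, the sexes did not overlap, against 3.13% of all, and the median was −0.23. The male-higher lists of the regions shared 106 genes, which is 48.4% of the hypothalamus list and 37.1% of the nucleus taenia list. The female-higher lists shared 10, or 18.2% and 6.62%. The libraries of the regions cannot be taken as independent of each other. In oil males same-numbered libraries deviated together from their group means across genes, with r = 0.672, 0.539 and 0.534 in numbers 1 to 3. In oil females 1 to 3 this r was lower, at −0.0145, 0.275 and 0.221. The labels do not say whether a number marks a bird, and the part of this in the shared genes was not tested.

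**Figure D4:**
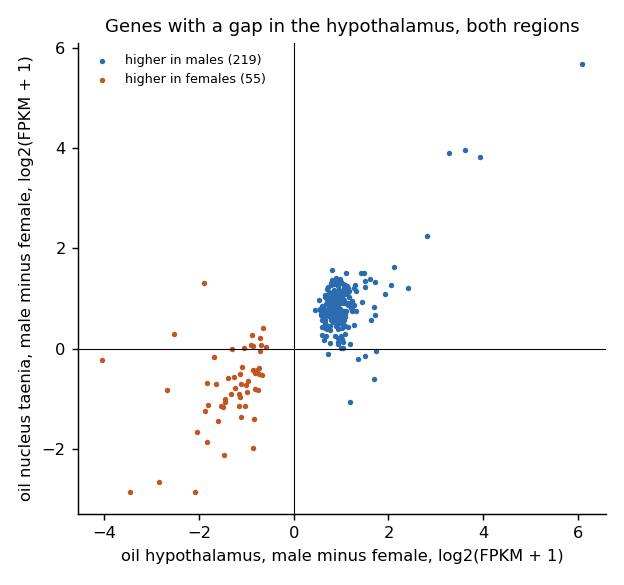
Sex difference in the oil nucleus taenia against that in the oil hypothalamus, male minus female on the log2(FPKM + 1) scale, for the 219 male-higher (blue) and 55 female-higher (orange) genes chosen in the hypothalamus. Of the blue points 213 lie above 0 in the nucleus taenia, most of them in 1 cluster, and 45 of the orange points lie below 0.

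Whether the sex difference differed between the regions was tested as an interaction over the 12 oil libraries. By limma 0 of 13560 genes passed, or 0.0%, with 333, or 2.46%, at an unadjusted p under 0.05, and the lowest adjusted p was 1.0. The interval reached 0.966 either side at the median gene on the log2 scale, a factor of 1.95. Regional differences within that factor of the estimate could thus not be told from it at the median gene. The interval is not adjusted for the number of genes, and this fit does not use the correlation of same-numbered libraries. With sex and number as a replicate block it was again 0 genes, with 535 at an unadjusted p under 0.05 in limma, and the interval reached 0.828 either side, a factor of 1.77. Among the 4 named genes, ENSTGUG00000001469 had an interaction of 0.27 with an interval from −0.22 to 0.77. In the nucleus taenia it was at 88.9, 95.8 and 102 FPKM in male replicates 1 to 3 and 59.8, 45.4 and 42.1 FPKM in female ones, again without overlap. ENSTGUG00000001116 was at 79.3, 50.6 and 68.4 FPKM in the male nucleus taenia and 43.8, 30.6 and 39.9 FPKM in the female one. For both genes the male side was the higher in each region. Both were picked by their separation in the oil hypothalamus libraries that the interaction reuses, so it is no separate test of either.

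The named female-higher genes were less separated in the nucleus taenia. They were picked by their separation in the oil hypothalamus libraries, which their region interactions reuse. Their lesser separation here and those interactions are thus no separate test of a regional difference. ENSTGUG00000000115 was at 45.1, 178 and 188 FPKM in female replicates 1 to 3 and 69.9, 129 and 58.8 FPKM in male ones, so that the sexes overlapped. ENSTGUG00000011882 was above 0 in 1 male library, at 6.95 FPKM, and 1 female library, at 11.8 FPKM. Its interaction had an unadjusted p of 0.0292 in limma and an adjusted p of 1.0, or 0.0526 and 0.95 with the block.

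Birds whose eggs had received testosterone gave the same contrast in the hypothalamus in 6 further libraries. In these, limma found 0 of 13560 genes, or 0.0%, with 1280, or 9.44%, at an unadjusted p under 0.05. The smallest adjusted p in limma was 0.0808. Genes without overlap were 1217 male-higher, or 8.97%, and 1272 female-higher, or 9.38%, and with a gap of 1.25 times 405, or 2.99%, and 480, or 3.54%. The library labelled female testosterone replicate 3 stood apart, with a total of 1476513 FPKM and a median of 7.03 FPKM, and the counts of these birds are given with and without it. Without it the genes with a gap were 671 male-higher, or 4.95%, and 843 female-higher, or 6.22%, and limma called 12 genes, 6 higher in each sex, with 1616 at an unadjusted p under 0.05. In limma the lowest adjusted p was then 0.0331. Genes without overlap were then 1928 male-higher, or 14.2%, and 2140 female-higher, or 15.8%, over 5 libraries. At 20 FPKM and above the gap was met by 239 male-higher and 170 female-higher genes with it, and by 409 and 258 without it. None of the 12 was in the lists of the oil birds (0 of the 6 male-higher and 0 of the 6 female-higher ones). Those lists hold 1.62% and 0.406% of all tested genes, so 0 of so few genes says little. In the oil hypothalamus 11 of the 12 had the same direction. Of all tested genes 51.6% were higher in males there and 48.4% in females.

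Of the 219 male-higher genes of oil birds, 199, or 90.9%, had a higher mean in males among testosterone birds, against 49.9% of all tested genes. Without female replicate 3 it was 198, or 90.4%, against 49.1% of all. The sexes did not overlap in 87 of the 219, or 39.7%, against 8.97% of all genes. Without that library, which leaves fewer libraries to order, it was 153, or 69.9%, against 14.2% of all genes. The median log2 difference was 0.65, and 0.82 without it. In the 113 genes of at least 20 FPKM, the median ratio to the mean of female replicates 1 and 2 was 2.05, 1.97 and 1.84 in male replicates 1 to 3 and 0.911 and 1.09 in those 2 female libraries. It was 1.74 in female replicate 3, which is not part of that mean, with the middle 50% of genes between 0.981 and 2.46. In all of oil hypothalamus, oil nucleus taenia and testosterone hypothalamus without that library, 135 of the 219 genes, or 61.6%, had every male library above every female one, as did 216 of all 13560 genes, or 1.59%. The oil hypothalamus part of this condition is the one that chose the 219. Of the 55 female-higher genes, 44 had a higher mean in females among testosterone birds, both with and without that library, against 49.9% and 50.6% of all tested genes. The sexes did not overlap in 12, or 21.8%, with it and in 20, or 36.4%, without it, against 9.38% and 15.8% of all. The median was −0.40 with it and −0.50 without it. Of the 55, 12, or 21.8%, had every female library above every male one in all 3 sets of libraries, as did 30 of all tested genes, or 0.221%. Here too the oil hypothalamus part of the condition is the one that chose the 55, so the shares are not like for like.

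**Figure D5:**
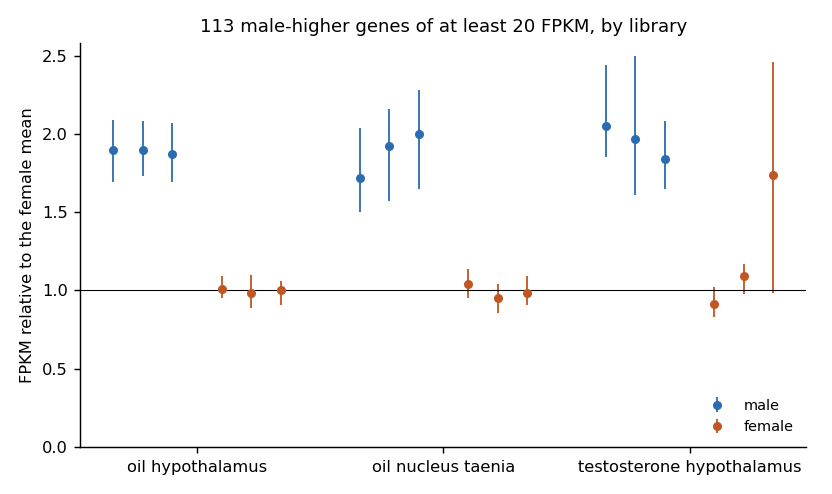
Median over 113 male-higher genes of at least 20 FPKM of a library's FPKM divided by the mean of the female libraries of its set (bars span the middle 50% of genes; female testosterone replicate 3 is left out of that mean). Male libraries lie at 1.72 to 2.05 in all 3 sets, and female ones at 0.911 to 1.09 except the 1 at 1.74. All female libraries but that one are part of their own reference mean, so their nearness to 1 is in part built in.

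A difference of the sex effect between oil and testosterone birds was found by limma in 0 of 13560 genes, or 0.0%. An unadjusted p under 0.05 was reached by 398 genes, or 2.94%, in limma. The smallest adjusted p in limma was 0.978. Without female testosterone replicate 2 or male testosterone replicate 3, limma called 1 gene. The interval reached 1.279 either side at the median gene, a factor of 2.43. Without female testosterone replicate 3 limma again called 0 genes, the lowest adjusted p being 0.995. An unadjusted p under 0.05 was reached by 486 genes, and the interval reached 1.056 either side, a factor of 2.08. ENSTGUG00000001469 was at 108, 109 and 120 FPKM in the testosterone males and at 39.9, 54.1 and 83.7 FPKM in the testosterone females 1 to 3. ENSTGUG00000001116 was at 78.7, 77.5 and 71.0 FPKM in those males and at 33.8, 45.5 and 120 FPKM in those females, where the highest value is that of the library that stood apart. ENSTGUG00000000115 did not keep its separation, at 83.9, 90.9 and 49.4 FPKM in testosterone males and 84.7, 51.7 and 0 FPKM in testosterone females, where the 0 is that of the same library. Its interaction of −3.28 had an interval from −7.17 to 0.61 (limma unadjusted p = 0.0903, adjusted p = 0.978). Without that library it was −1.26 with an interval from −2.12 to −0.4 (limma unadjusted p = 0.00847, adjusted p = 0.995), which did not pass either. The gene was picked by its separation in the oil libraries that this interaction reuses, so these values are no separate test of it.

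Of the 100 genes with the smallest unadjusted p in oil hypothalamus, 91 were higher in males and 9 in females, and their differences had a median size of 0.98 on the log2 scale. All 100 were among the 274 genes with a gap, found in the same 6 libraries. The counts of these 100 genes, here and in the other libraries, thus describe a subset of the gap lists and are no separate evidence. In the oil nucleus taenia 100 of the 100 had the same direction. Of all tested genes 47.1% were higher in males there and 52.8% in females, and its libraries cannot be taken as independent of those of the hypothalamus. In the hypothalamus of testosterone birds 93 of the 100 had the same direction, and 95 without female replicate 3. Of all tested genes 49.9% were higher in males and 49.9% in females among testosterone birds with that library.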

How the data were processed

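The deposited values are FPKM, computed by the authors for 17475 genes in 24 RNA libraries. The submitters' processing notes name Cufflinks 2.2.1, TopHat2 2.1.1 and cutadapt 1.9.1. For the build and the gene models, versions were not given in the sources used here. FPKM removes depth and gene length, so read numbers and counting error are unknown. The identifiers are of the Ensembl type, and 0 matched the RefSeq gene table at hand (bTaeGut7.mat), so the marker and pathway lists, and the rule naming genes by symbol, could not be applied. Instead 2 identifiers a direction are printed, those with the smallest p among genes whose sexes do not overlap, since none passed the threshold.

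Genes with a mean of at least 1 FPKM over the 6 oil hypothalamus libraries were tested with limma 3.58.1 (R 4.3.3) on log2(FPKM + 1), which understates the fold of low genes. Variances were moderated with a trend, and p was adjusted by Benjamini-Hochberg over all 13560 genes at 0.05. The fit held the 6 libraries alone; interactions used 12. Gaps, ratios and figures were made with pandas 2.3.3 and matplotlib 3.10.9. The members, contrasts and lists were chosen with earlier results of these data known. Alternatives were pseudocounts of 0.1 and 5, other filters, scalings and moderation, fits over more libraries, a replicate block, and each library left out in turn.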

Additional observations from a re-analysis of the deposited data

How the results depend on the processing

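The adjusted limma count for sex in the oil hypothalamus was 0 under each pseudocount, filter, scaling and moderation tried, and with 11 or 12 hypothalamus or 12 control libraries in the fit. It was 0 to 1 with each library left out and 1 with all 24 libraries. The 4 named genes kept their direction under all 19 alternatives, none past the threshold. Their adjusted p moved widely with the libraries in the fit. For ENSTGUG00000001469 it was 0.0577 in limma with the 12 control libraries and 0.12 with all 24. Without male replicate 2 of the oil hypothalamus it was 0.995. The interaction with region was 0 in all 22 alternatives, and that with treatment 0 to 1 with each library left out. For sex in the oil nucleus taenia the count was 0 to 3 with each library left out. For sex in testosterone birds it was 0 to 12 with each left out, 2 at a pseudocount of 0.1 and 1 with quantile normalization.

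Same-numbered male and female oil hypothalamus libraries correlated at r = 0.449, 0.104 and 0.0891 in their deviations from the group means. All 3 were above 0, but 1 was under the limit of 0.1 used here. The main fit thus did not take the numbers as pairs, and these values do not settle whether they are pairs. With the replicate number as a block the count was 0 in the oil hypothalamus, with 675 genes at an unadjusted p under 0.05, and 0 in the oil nucleus taenia; it was 0 in the other contrasts.

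Genes without overlap ran from 991 to 1636 male-higher and from 767 to 1570 female-higher with each library left out. With a gap of 1.25 times the ranges were 316 to 522 and 131 to 352. Scaling moved the counts with a gap little, to 204 and 58 with median ratios and 198 and 52 with quantiles. With no gap required it brought the directions closer, to 618 and 495 with median ratios and 622 and 509 with quantiles. Male-higher genes were then 55.5% and 55.0% of those without overlap. The female-higher count with a gap fell to 24 at a mean of at least 5 FPKM, and to 18 at a pseudocount of 5. The male-higher counts were then 186 and 152. Male-higher genes were 77.4% to 89.4% of those with a gap under these settings. What limits the comparison is 3 libraries a sex and unknown read depth.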
